A study of Mus musculus with 8 samples.

Results

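The AP-1 and immediate early response was followed through single cells of the mouse organ of Corti in 10 genes: Fos, Fosb, Jun, Junb, Jund, Egr1, Atf3, Ier2, Btg2 and Dusp1. They were taken by symbol, all were found, and they are 10 of the 27998 genes listed in each of the 8 libraries. The genes were chosen by their known roles and selected on UMI levels across the cell types of these libraries that had already been seen, so their levels by cell type, and every comparison of them between cell types, are given as descriptions without a test. For the members, tests are given only between groups of libraries, within a cell class or as a difference of such changes. The levels already seen covered all 8 libraries, so these tests are not independent of the choice. The mice carried an inducible Cre driven by Fgfr3, which is active in Deiters' and pillar cells, and a Cre-dependent Atoh1-HA transgene that drives supporting cells (SCs) towards a converted hair cell (cHC) state, next to endogenous hair cells (HCs).

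All groups shared the genotype Fgfr3iCre+, Atoh1-HA+, Chrna9-GFP+ and a loxP-stop-loxP tdTomato reporter at Rosa26. Coch + Tmx P26 (3 libraries) and Coch + Tmx P33 (2 libraries) received tamoxifen at P12 and P13 by their labels and were collected at the age in their names. Coch P12 (2 libraries) and Coch P33 (1 library) received none. Age and induction therefore overlap in every comparison with Coch P12, and the 2 cannot be told apart; the single uninduced P33 library is given beside them as values. The study calls its replicates biological and gives an equal number per group, which the labels do not, and no label ties a library to an animal. P-values therefore measure the spread between these libraries.

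Immediate early genes are transcribed within minutes of a stimulus without new protein synthesis, usually through MAP kinases acting on factors that already sit on their promoters. FOS and JUN proteins pair into AP-1, which binds short palindromic sites, while EGR1 is a zinc finger factor and ATF3 a stress-induced bZIP factor. BTG2 is antiproliferative, IER2 is a small nuclear protein, and DUSP1 removes the activating phosphates from MAP kinases. Enzymatic dissociation of tissue is itself known to induce these genes, and these cochleae were digested with several enzymes and triturated before capture.

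The promoter letters give the sequence beside which such factors act. RefSeq promoter windows (GRCm38.p6, 250 bases before to 50 after the start) were at hand for 8 of the 10 members, without Egr1 and Ier2. Stretches of 30 bases are shown for the members that carry the results below, with the matched letters in capitals.
Fos, chr12:85473813-85473842, plus strand, match from 66 bases before the start: gttccgcccagTGACGtaggaagtccatcc
Fos, chr12:85473846-85473875, plus strand, match from 33 bases before the start: cacagcgcttcTATAAAggcgccagctgag
Junb, chr8:84978836-84978865, minus strand, match from 106 bases before the start: cttcctgacagTGACGcgagccgcctcctc
Btg2, chr1:134079303-134079332, minus strand, match from 166 bases before the start: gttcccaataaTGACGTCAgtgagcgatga
Dusp1, chr17:26508597-26508626, minus strand, match from 143 bases before the start: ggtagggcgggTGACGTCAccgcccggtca

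The full cyclic AMP response element TGACGTCA lay in the windows of Btg2 and Dusp1, 2 of 8 members, against 1.79% of all 32851 windows. Its shorter form TGACG, which the full element contains, lay in 6 of 8 member windows against 20.8%. The AP-1 element TGACTCA lay in 0 of 8 against 5.20%, and the EGR element GCGGGGGCG in 1 of 8 against 2.91%. These were searched on both strands. The TATA box TATAAA, searched on the transcribed strand only, lay in 2 of 8 against 8.32%. Genes in GRCm38.p6 span chr12:85473890-85477274 for Fos, chr4:95049036-95052222 for Jun, chr8:84976909-84978748 for Junb, chr1:134074865-134079155 for Btg2 and chr17:26505591-26508472 for Dusp1. A match is a description of letters, not a site of binding.

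Of 8061 deposited barcodes, 5982 cells were kept, with 3972800 to 13423524 UMIs per library and a library median of 3535 to 8754 UMIs per cell. The cells formed 32 clusters, of which 25 were named in 14 classes by markers; the members and the other genes listed here took no part in the clustering. Of 13 SC markers, 11 or 12 were detected in each SC-like sum (21707 to 45962 CPM together), and of 12 HC markers 10 to 12 in each HC-like sum (4777 to 37917 CPM). At most 3 barcodes were shared by any pair of libraries. Class sizes were 2365 stromal-like, 562 macrophage-like, 129 SC-like, 117 cHC-like and 63 HC-like cells, and a library entered a comparison with at least 5 cells of each class. Atoh1 stood at 90.9 to 526 CPM over all cells of 4 of the 5 induced libraries and at 17.3 to 23.4 CPM in the uninduced. Only 12.4 CPM and 0 cHC-like cells were found under the label Coch + Tmx P26 rep 3, so whether it was induced is uncertain. That library is used as labelled. Without it the counts of members called between groups in all stromal-like, macrophage-like and SC-like cells were the same.

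The summed members were detected in every class of cells. Over the 5 classes found in all 8 libraries, their level varied far more between classes than between libraries. CPM here is the UMIs of a gene per 1000000 UMIs of a class within a library. Summed over the 10 members, stromal-like cells stood at 6213 ± 1637 CPM (SD, n = 8 libraries) and macrophage-like cells at 4065 ± 1223 CPM (n = 8). Cells of the hair cell lineage had lower means, over fewer libraries: cHC-like cells at 2611 ± 495 CPM (n = 4), SC-like cells at 2451 ± 941 CPM (n = 6) and HC-like cells at 1067 ± 975 CPM (n = 5). Their ranges overlapped that of macrophage-like cells. In Coch + Tmx P26 rep 1, cHC-like cells stood above macrophage-like cells, at 2485 against 2198 CPM, and in the other libraries with both they stood below. Nonsensory epithelial-like cells, the non-hair-cell epithelium around the hair cell lineage, stood at 2392 ± 672 CPM (n = 8), within the spread of SC-like and cHC-like cells.

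The top and the bottom of the order were outside the sensory epithelium. Chondrocyte or osteoblast-like cells reached 5275 ± 1105 CPM (n = 3) and endothelial-like cells 3978 ± 1105 CPM (n = 3). Neuron-like cells had 688 ± 175 CPM (n = 6) and erythroid-like cells 568 ± 216 CPM (n = 8). Fosb had 0 UMIs in the 4 B cell-like libraries. Stromal-like and chondrocyte or osteoblast-like cells were within their spread of each other, as were macrophage-like and endothelial-like cells. Stromal-like libraries, from 4506 to 8172 CPM, did not overlap the erythroid-like ones, from 356 to 879 CPM. Barcodes with too few genes to be kept, mostly hemoglobin RNA, held 1487 to 2069 member UMIs per 1000000 other UMIs, so some of the signal in any class may be free RNA, and its part was not tested.

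**Figure D1:**
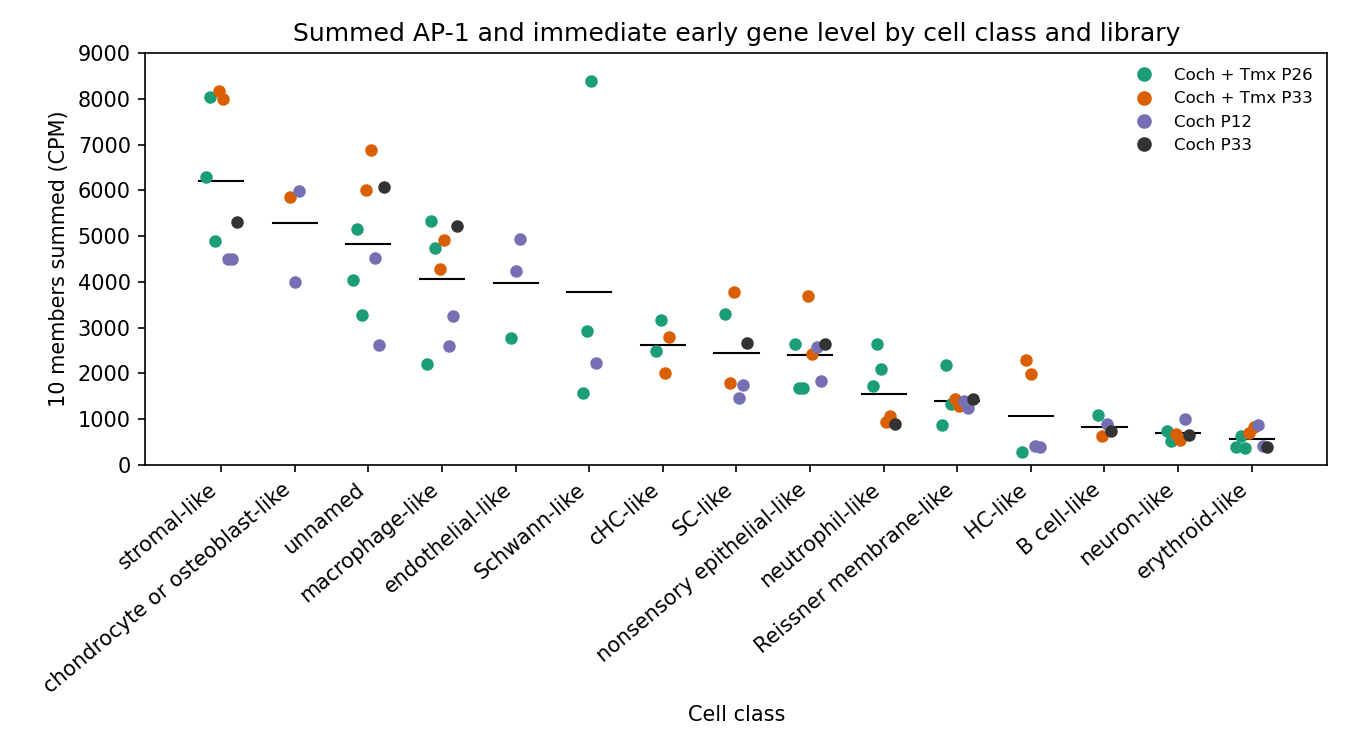
Summed CPM of the 10 members (y axis, linear from 0) in each cell class (x axis, ordered by mean); each point is 1 library with at least 5 cells of the class, coloured by group, and the bar is the mean. Stromal-like points lie between 4506 and 8172 CPM, and erythroid-like points between 356 and 879 CPM.

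The 5 classes found in all 8 libraries were stromal-like, macrophage-like, nonsensory epithelial-like, Reissner membrane-like and erythroid-like, without the SC-like, cHC-like and HC-like classes. Over them, class held 89.7% of the sum of squares of log2(CPM + 1) of the summed members, library 3.89% and the remainder 6.38%. Some classes outside them varied widely between libraries, from 282 to 2279 CPM in HC-like and from 1562 to 8386 CPM in Schwann-like cells. Without erythroid-like cells the shares were 81.6%, 7.26% and 11.2%. Jund had the largest share by class, 90.2%, but 52.6% without erythroid-like cells. The largest library shares over the 5 classes were those of Dusp1, 13.3%, and Atf3, 12.5%. Fosb left the most outside both, 41.8%. These shares are descriptions, since the levels were known when the genes were chosen.

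The share of cells with a UMI was taken after each cell was thinned to 1000 UMIs. Any member was seen in 80.8% ± 3.92 (SD, n = 8) of all kept cells, and in 97.8% before thinning. By class the thinned share was 89.0% in stromal-like, 88.2% in macrophage-like, 85.3% in cHC-like, 73.6% in SC-like and 42.6% in HC-like cells, against 39.2% in erythroid-like cells, a type with little transcription. For Fos, the archetype of the response, it was 51.8% in stromal-like, 47.7% in macrophage-like, 29.95% in cHC-like, 23.0% in SC-like and 11.4% in HC-like cells, against 4.16% in erythroid-like cells. The HC-like shares varied widely over their 5 libraries, from 0% to 85.7% for any member and from 0% to 42.9% for Fos. Jun, the partner of Fos in AP-1, was seen in 41.7% of stromal-like, 45.2% of macrophage-like, 23.2% of SC-like, 10.2% of cHC-like and 5.71% of HC-like cells, against 4.39% in erythroid-like cells. The HC-like mean for Jun came from 1 library at 28.6%, and the other 4 stood at 0.

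**Figure D2:**
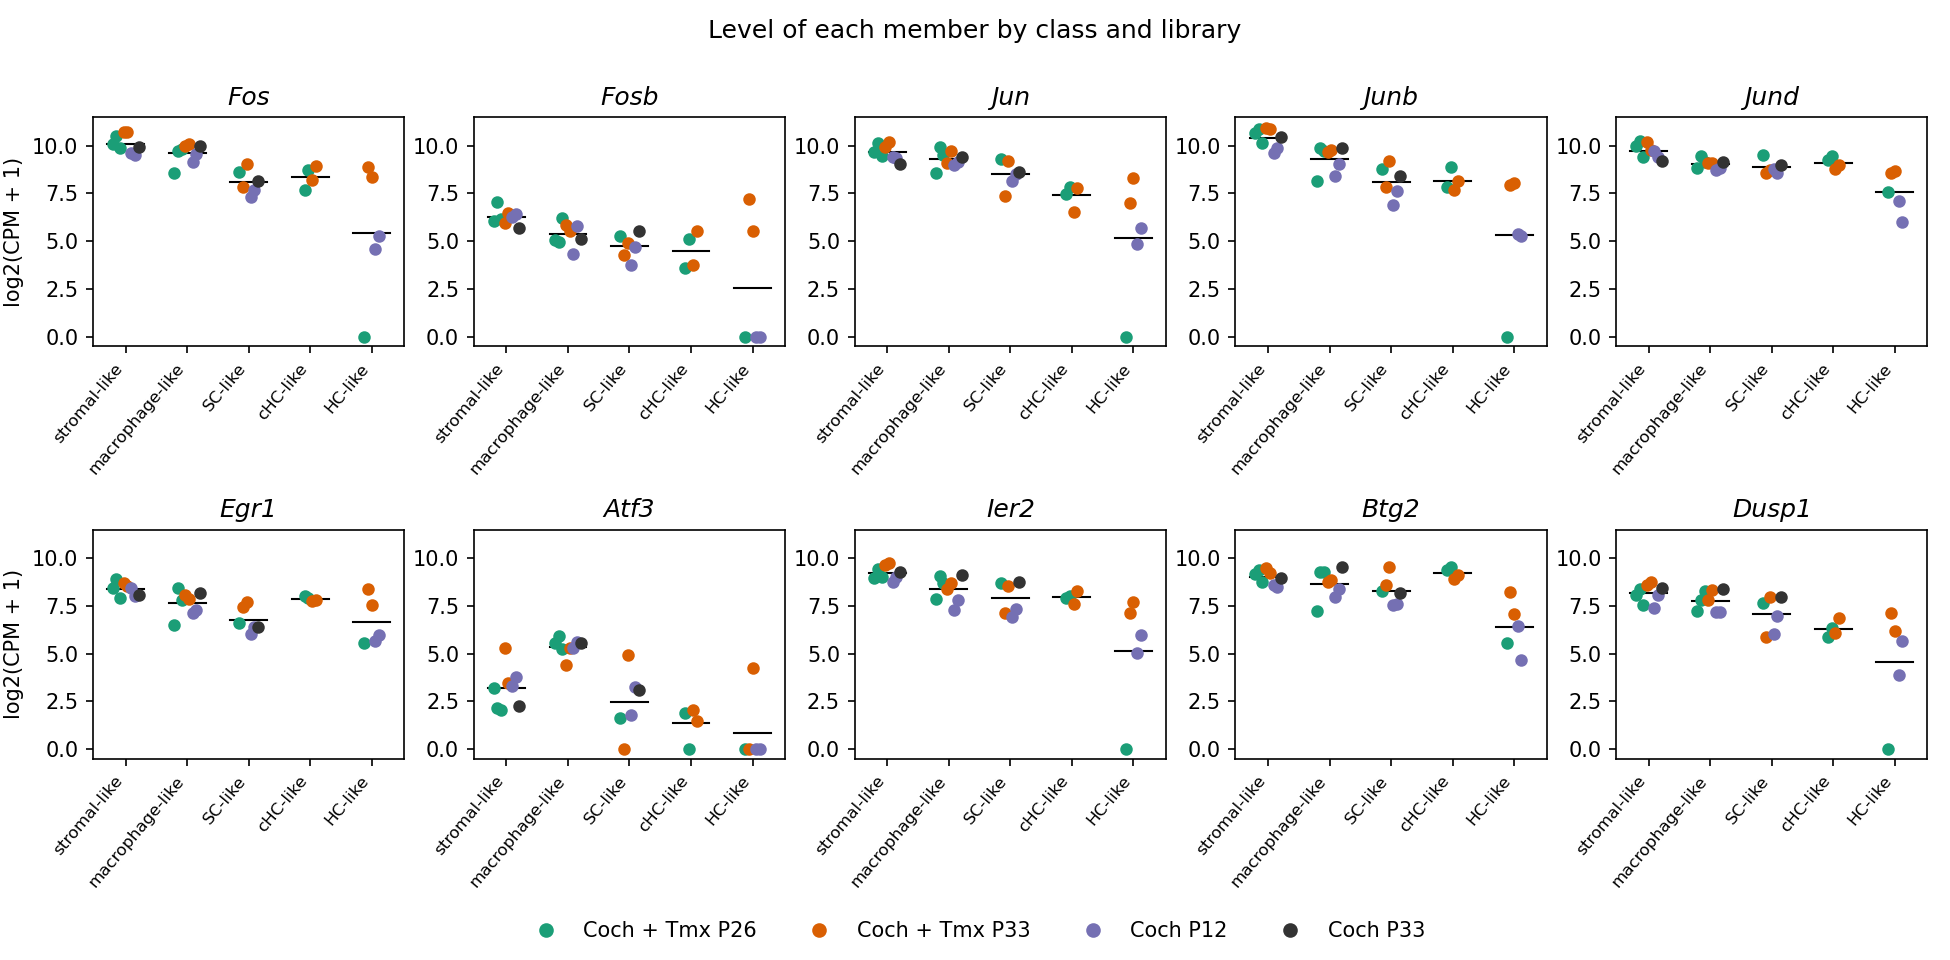
Level of each member, log2(CPM + 1) (y axis), in 5 classes (x axis); each point is 1 library, coloured by group, and the bar is the mean of the points. Btg2 is about as high in cHC-like as in stromal-like cells on this scale, and macrophage-like cells alone among the 5 hold at least 19.9 CPM of Atf3 in all their libraries.

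The members did not form a single block. Atf3 alone had a higher mean in macrophage-like than in stromal-like cells, with 19.9 to 59.6 CPM and 3.15 to 38.7 CPM. Btg2 had its highest mean in cHC-like cells, 615 CPM (n = 4) against 536 CPM in stromal-like and 454 CPM in macrophage-like cells (n = 8 for each). In Coch + Tmx P33 alone its mean was lower in cHC-like than in stromal-like cells, 519 against 667 CPM. In Coch + Tmx P26 it was higher, 711 (n = 2) against 568 CPM (n = 3). Over the same unlike sets of libraries, Jund (565 against 533 CPM) and Egr1 (237 against 219 CPM) also had a higher mean in cHC-like than in macrophage-like cells. In Coch + Tmx P33 both means were lower in cHC-like cells, at 478 against 547 CPM and 223 against 253 CPM. In Coch + Tmx P26 both were higher, at 652 (n = 2) against 576 CPM (n = 3) and 251 against 220 CPM. Over 61 sums of a library and a class with at least 10 cells, pairs of members correlated from r = 0.18 (Atf3 with Ier2) to 0.88 (Junb with Ier2), with a median of 0.61 over 45 pairs. The sums share libraries, classes and depth, so the correlations are descriptive. Outside the members, the genes most like the summed members among 9367 were Tpm4, a tropomyosin (r = 0.84), Rps9, a ribosomal protein (0.82), Eif3h (0.81), Zfp36, an mRNA decay factor and itself an immediate early gene (0.81), and H3f3b, a histone (0.79). Itm2b, Rpl35a, Tmem50a, Rps16 and Socs3 followed, from 0.77 to 0.79.

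Supporting cells held less of the response than the connective tissue they were dissociated with. In 6 libraries with both classes, 6 of 10 members were lower in SC-like than in all stromal-like cells of every library, as were 23.2% of 8244 genes. Differences between classes are edgeR log2 fold changes with library as a block and their SE, and no p is given for them because the genes were selected on such levels. The threshold used elsewhere, an edgeR quasi-likelihood p under 0.05 after Benjamini-Hochberg (BH) adjustment over all genes, would pass 9 of 10 members here, where 48.3% of genes pass and 27.9% pass as lower. Nothing is read from that count. The largest differences were those of the AP-1 subunits Junb and Fos, and the smallest those of Atf3, Btg2 and Jund.

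Fos in SC-like cells stood at 401 CPM in the Coch + Tmx P26 rep 3 library, 230.3 and 535 CPM in Coch + Tmx P33 rep 1 and 2, 157 and 202 CPM in Coch P12 rep 1 and 2, and 288 CPM in Coch P33. The same libraries had 931, 1660.3, 1683, 782, 728 and 982 CPM in stromal-like cells. No SC-like value reached the lowest stromal-like value, and the fold change was -2.07 ± 0.22 (SE). Junb, an AP-1 subunit that often opposes Jun, stood at 441, 226, 579, 120.0, 194 and 344 CPM in SC-like cells in that order. In stromal-like cells it stood at 1115, 1938, 1860, 786, 938 and 1398 CPM. It too was lower in SC-like cells of all 6 libraries, by -2.31 ± 0.24 on the log2 scale.

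The other AP-1 subunits differed less. The log2 fold change was -1.15 ± 0.27 for Jun, -1.44 ± 0.30 for Fosb, a FOS relative, and -0.88 ± 0.23 for Jund, the most steadily expressed JUN protein. Egr1 stood at -1.66 ± 0.21 and Ier2 at -1.45 ± 0.28. Fos, Fosb, Jun, Junb, Egr1 and Ier2 were the 6 lower in all libraries. Dusp1, at -1.12 ± 0.28, and Btg2, at -0.77 ± 0.20, were lower in 5 of 6, as was Jund. Atf3, with 0 to 29.3 CPM in SC-like cells, had -0.74 ± 0.69 and was lower in 4 of 6.

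That difference depended on which stromal-like cells were used. Stromal-like clusters differ by age, and 1 of them, led by Otos, Fxyd2 and S100b (136 cells), had at least 5 cells in all 8 libraries. Its summed members stood at 1408 to 3591 CPM, close to the 1455 to 3773 CPM of SC-like cells. Against it alone, a comparison added after the data were seen, 8 members could be fitted. The log2 fold changes were -0.22 ± 0.34 for Fos, -0.25 ± 0.25 for Junb, 0.61 ± 0.30 for Jun, 0.06 ± 0.24 for Jund and 0.14 ± 0.32 for Egr1. Btg2 stood at 1.91 ± 0.31, Ier2 at 0.64 ± 0.25 and Dusp1 at -1.003 ± 0.30. The threshold would pass 3 of the 8, where 47.5% of 4870 genes pass, and nothing is read from that. Clusters led by Fst and Inmt, or by interferon genes such as Ifit3, reached 9303 and 9299 CPM for the summed members.

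**Figure D3:**
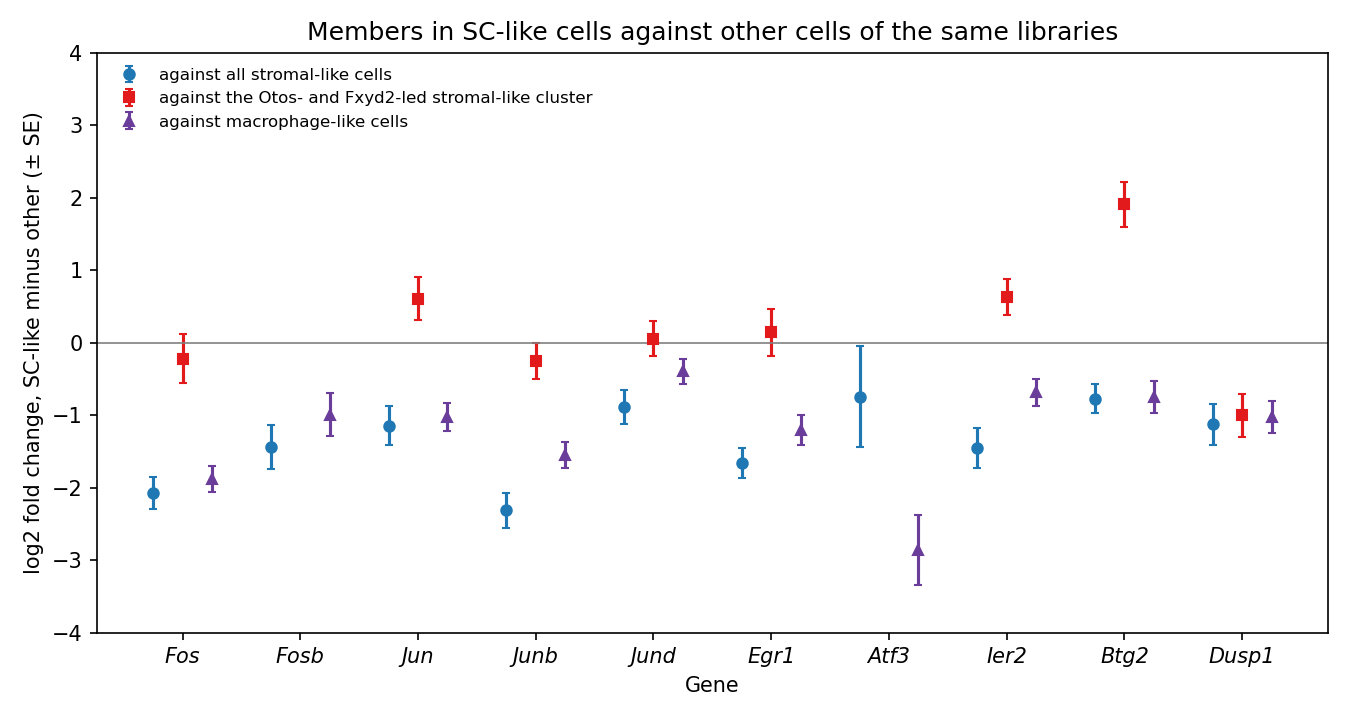
Fold change of each member (x axis) in SC-like cells against other cells of the same libraries (y axis, log2, positive where SC-like is higher, bars ± SE); circles are against all stromal-like cells, squares against a single stromal-like cluster and triangles against macrophage-like cells. Fos and Junb lie at -2.07 and -2.31 against all stromal-like cells but at -0.22 and -0.25 against the Otos- and Fxyd2-led cluster.

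Macrophage-like cells stood on the same side as the whole stroma. In the same 6 libraries 6 of 10 members were lower in SC-like cells of every library, as were 22% of 7411 genes: Fos, Jun, Junb, Egr1, Atf3 and Dusp1. The threshold would pass 9 of 10, where 55.6% of genes pass and 30.3% pass as lower, and nothing is read from that. Atf3 had the largest log2 difference, -2.86 ± 0.48, then Fos with -1.88 ± 0.18 and Junb with -1.55 ± 0.18. Egr1 stood at -1.20 ± 0.21, Dusp1 at -1.03 ± 0.22, Jun at -1.02 ± 0.19 and Fosb at -0.995 ± 0.30. Btg2 stood at -0.75 ± 0.23 and Ier2 at -0.68 ± 0.19, and Jund, at -0.39 ± 0.17, was lower in 4 of 6. Markers of other cells in SC-like sums ranged from 50.1 to 202 CPM for macrophages (7 to 10 of 12 detected) and from 58.7 to 1407 CPM for stroma (6 to 14 of 17), and their part was not tested.

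Jun, Btg2 and Ier2 stood lower in endogenous hair cells than in supporting cells of the same cochleae in all 4 libraries that had both classes, 2 of Coch + Tmx P33 and 2 of Coch P12. That held for 24.1% of the 3065 genes fitted, which included 8 members, without Fosb and Atf3. Jun in HC-like cells was 127 and 315 CPM in Coch + Tmx P33 rep 1 and 2 and 27.4 and 49.9 CPM in Coch P12 rep 1 and 2. In SC-like cells it was 167, 586, 282 and 371 CPM, a log2 fold change of -1.70 ± 0.50. The threshold would pass 2 of the 8 members, Jun and Btg2, where 28.6% of genes pass and 11.8% pass as lower, and nothing is read from that.

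Btg2 was 297, 135, 86.8 and 24.9 CPM in HC-like cells and 393, 762, 185 and 194 CPM in SC-like cells in the same order, a log2 fold change of -1.50 ± 0.42. Ier2 stood at -0.96 ± 0.34. Junb (-1.05 ± 0.39), Jund (-0.93 ± 0.45), Dusp1 (-0.91 ± 0.56) and Fos (-0.89 ± 0.58) were lower in 3 of 4 libraries and higher in the other. Egr1 was also lower in 3 of 4, but its fitted difference was 0.11 ± 0.32. These values rested on few cells: the number of members past the threshold was 0 without Coch P12 rep 1 or without rep 2, and 6 without Coch + Tmx P33 rep 1.

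HC-like levels differed by group, which was not tested. Fos was 466 and 324 CPM in the HC-like cells of Coch + Tmx P33, but 22.8 and 37.4 CPM in those of Coch P12 and 0 in Coch + Tmx P26 rep 1, where 5 cells allow up to 141 CPM. Summed members were 2279 and 1974 CPM, against 411 and 387 CPM and 282 CPM. The median mitochondrial share of these cells was 11.2% and 8.71%, 16.1% and 13.8%, and 8.85% in that order. Supporting cell markers summed to 14291 and 21163 CPM in the HC-like cells of Coch + Tmx P33, 5802 and 2282 CPM in Coch P12 and 5303 CPM in Coch + Tmx P26 rep 1, against 21707 CPM or more in SC-like sums. Nonsensory epithelial markers moved with them, from 4103 and 3903 CPM in Coch + Tmx P33 to 1229 and 162 CPM in Coch P12 and 188 CPM in Coch + Tmx P26 rep 1. The 2 libraries with the most of both marker lists also had the most of the summed members. HC-like cells of Coch P12 rep 2 also held all 12 macrophage markers, 3367 CPM summed, against 93.9 to 135 CPM in the others. In Coch + Tmx P33 rep 2, 1 of 7 HC-like cells gave 66.7% of the Egr1 UMIs, and in rep 1, 1 of 7 gave 43.2% of those of Fos. The part of each in the HC-like levels was not tested.

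Btg2 stood higher in converted than in endogenous hair cells of the 3 libraries with both classes. It was 683, 476 and 563 CPM in cHC-like cells of Coch + Tmx P26 rep 1 and Coch + Tmx P33 rep 1 and 2, and 46.9, 297 and 135 CPM in their HC-like cells. The log2 fold change was 2.01 ± 0.58, and 1.40 ± 0.31 without Coch + Tmx P26 rep 1. Ier2 (1.16 ± 0.59) and Jund (0.89 ± 0.48) were also higher in 3 of 3, as 22.1% of 5024 genes were. The other members fitted, all but Atf3, differed in direction between libraries. The threshold would pass 0 of 9 with edgeR or DESeq2, with 1 at an unadjusted p under 0.05 with edgeR, where 7.88% of genes pass, and nothing is read from that.

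Converted cells and supporting cells of the same cochleae were compared in Coch + Tmx P33 rep 1 and 2, with 42 and 39 cHC-like cells next to SC-like numbers of 16 and 12. Jun was 91.8 and 220.4 CPM in cHC-like cells and 167 and 586 CPM in SC-like cells, a fold change of -1.16 ± 0.26 on the log2 scale. DESeq2 gave -1.13 ± 0.57 for Jun, and a limit of 10% mitochondrial UMIs left -0.41. Without that limit the rest lay nearer to 0: Fos 0.11, Ier2 0.10, Btg2 -0.07, Jund 0.28, Fosb 0.16 and Egr1 0.23, while Junb and Dusp1 each stood at -0.57 (SE 0.25 and 0.33). With the limit Junb stood at 0.09, Dusp1 at 0.30, Fos at 0.41, Ier2 at 0.60, Btg2 at 0.35, Jund at 0.34 and Egr1 at 0.13. The threshold would pass 1 of the 9 members fitted, where 37.6% of 5778 genes pass, and nothing is read from that. The median mitochondrial share was 12.6% and 13.9% in these cHC-like cells and 5.88% and 5.34% in the SC-like cells.

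Within cHC-like cells, Jun was lower where Pou4f3, a hair cell transcription factor, was detected. With and without a Pou4f3 UMI, Jun stood at 137 and 199 CPM in Coch + Tmx P26 rep 1 (12 and 18 cells), 73.2 and 763 CPM in rep 2 (4 and 2 cells), 24.0 and 269 CPM in Coch + Tmx P33 rep 1 (29 and 13 cells) and 84.6 and 536 CPM in rep 2 (25 and 14 cells). It was lower in 4 of 4 libraries, as were Junb, Jund, Ier2 and Dusp1, 5 members in all, and as were 9.78% of the 8466 genes with a mean of at least 10 CPM. Fos was lower in 3 of 4 and Egr1 in 1 of 4, and Btg2 in 2 of 4, and the summed members were lower in 3 of 4. The split was not tested, and in rep 2 of Coch + Tmx P26 a single cell gave 75.0% of the Jun UMIs.

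**Figure D4:**
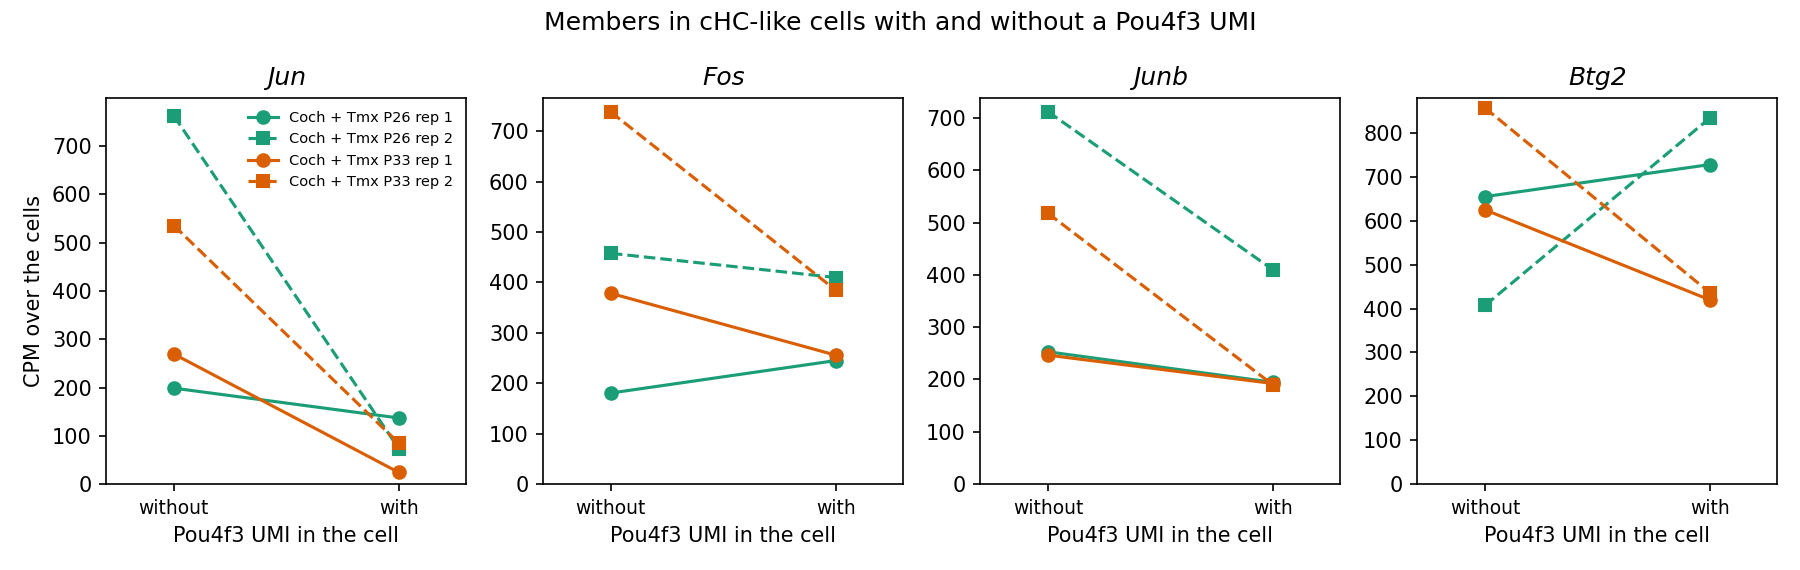
CPM (y axis, linear from 0) of Jun, Fos, Junb and Btg2 in cHC-like cells without and with a Pou4f3 UMI (x axis); each line joins the values of 1 library, coloured by group, solid for rep 1 and dashed for rep 2. Every Jun line falls, from 763 to 73.2 CPM in Coch + Tmx P26 rep 2, and the Btg2 lines go both ways.

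In the stroma, Fos and Junb were higher at Coch + Tmx P33 than at Coch P12. All stromal-like sums entered 1 fit without a block; 11229 genes were tested, all 10 members among them, and 7.09% were called, 4.57% higher. Fos rose from 782 and 728 CPM in Coch P12 to 1660.3 and 1683 CPM in Coch + Tmx P33, by 1.13 ± 0.25 on the log2 scale (SE; edgeR quasi-likelihood test, BH adjusted p = 0.0222). Junb rose from 786 and 938 CPM to 1938 and 1860 CPM, by 1.12 ± 0.27 (0.0323). The uninduced Coch P33 library had 982 CPM of Fos and 1398 CPM of Junb, between both groups.

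As many as 8 members were higher in Coch + Tmx P33 with no overlap, as were 28.2% of genes tested. Of those that did not pass, Btg2 had 0.81 (edgeR, BH adjusted p = 0.0749), Ier2 0.80 (0.101), Dusp1 0.89 (0.123), Jun 0.68 (0.165) and Fosb -0.13. Neither Fos nor Junb was called when either Coch + Tmx P33 library or Coch P12 rep 1 was left out, nor Fos without Coch P12 rep 2, and the fold changes then ranged from 0.92 to 1.15. The stromal-like clusters also changed with age: Coch P12 cells lay mostly in clusters led by Otor or Col15a1, and later ones in clusters led by Dcn or Fst. In the Otos- and Fxyd2-led cluster alone, chosen after the data were seen, 0 of 9 members passed with edgeR (2 at an unadjusted p under 0.05), where 0.893% of genes were called. Fos there had 1.43 ± 0.49 (edgeR, BH adjusted p = 0.220) and Junb 0.44 ± 0.39 (0.755), from 44 down to 6 cells per library.

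No member was called for the Coch + Tmx P26 libraries in stromal-like cells with edgeR. For Coch + Tmx P26 against Coch P12, 0 of 10 members passed with edgeR in stromal-like cells, 3 had an unadjusted p under 0.05 and DESeq2 called 1, Junb, with 7.45% of genes called. Junb had 0.79 ± 0.25 (edgeR, BH adjusted p = 0.0881), from 1616, 1905 and 1115 CPM in Coch + Tmx P26. For Coch + Tmx P33 against Coch + Tmx P26, edgeR called 0% of 11229 genes and 0 members, DESeq2 called 0 members, and 4 members had an unadjusted p under 0.05: Fos, Ier2, Dusp1 and Atf3. Atf3 had 2.19 ± 0.62 (edgeR, BH adjusted p = 0.747). In the Otos- and Fxyd2-led cluster alone, 0 of 9 members passed either comparison with edgeR, 1 and 2 had an unadjusted p under 0.05, and 1.43% and 0.0235% of genes were called.

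Macrophage-like cells gave no call. For Coch + Tmx P33 against Coch P12, 0 of 10 members were called by edgeR or DESeq2, 2 had an unadjusted p under 0.05 with edgeR, and 0.81% of 7779 genes were called. Without overlap 7 members were higher, against 20% of genes. Ier2, from 154 and 226 CPM to 341 and 422 CPM, had 1.05 ± 0.41 (edgeR, BH adjusted p = 0.352), and Fos, from 564 and 756 CPM to 1003 and 1077 CPM, had 0.70 ± 0.41 (0.614).

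In supporting cells, the cells that carry the driver of the transgene, Btg2 and Egr1 were higher at Coch + Tmx P33 than at Coch P12. The 9 members other than Atf3 were among 5965 genes tested, with 6.2% called and 3.27% higher. Btg2 rose from 185 and 194 CPM to 393 and 762 CPM, by 1.57 ± 0.39 (edgeR quasi-likelihood, BH adjusted p = 0.00933). Egr1 rose from 65.0 and 84.4 CPM to 176 and 212 CPM, by 1.40 ± 0.44 (0.0475). Coch P33 had 291 CPM of Btg2 and 82.8 CPM of Egr1, so its Btg2 lay between the groups and its Egr1 within Coch P12.

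Junb (1.35 ± 0.43; edgeR, BH adjusted p = 0.0533) and Fos (1.06, 0.146) did not pass, nor did Ier2 (0.84), Dusp1 (0.69), Fosb (0.47), Jun (0.15) and Jund (-0.09). Without overlap 4 members were higher, against 23.6% of genes. The calls depended on the libraries. Egr1 was not called when either Coch + Tmx P33 library or Coch P12 rep 1 was left out, without a filter on low counts (edgeR, BH adjusted p = 0.0848) or under 10% mitochondrial UMIs (0.0691), and Btg2 was not without Coch + Tmx P33 rep 2 or Coch P12 rep 1. In count, 0 members were called without Coch + Tmx P33 rep 2 or without Coch P12 rep 1, and 4 were without Coch P12 rep 2, which had 8 SC-like cells. DESeq2 called 0. A single cell gave 60.9% of the Btg2 UMIs in Coch P12 rep 2 and 41.4% of those of Egr1 in Coch + Tmx P33 rep 2.

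**Figure D5:**
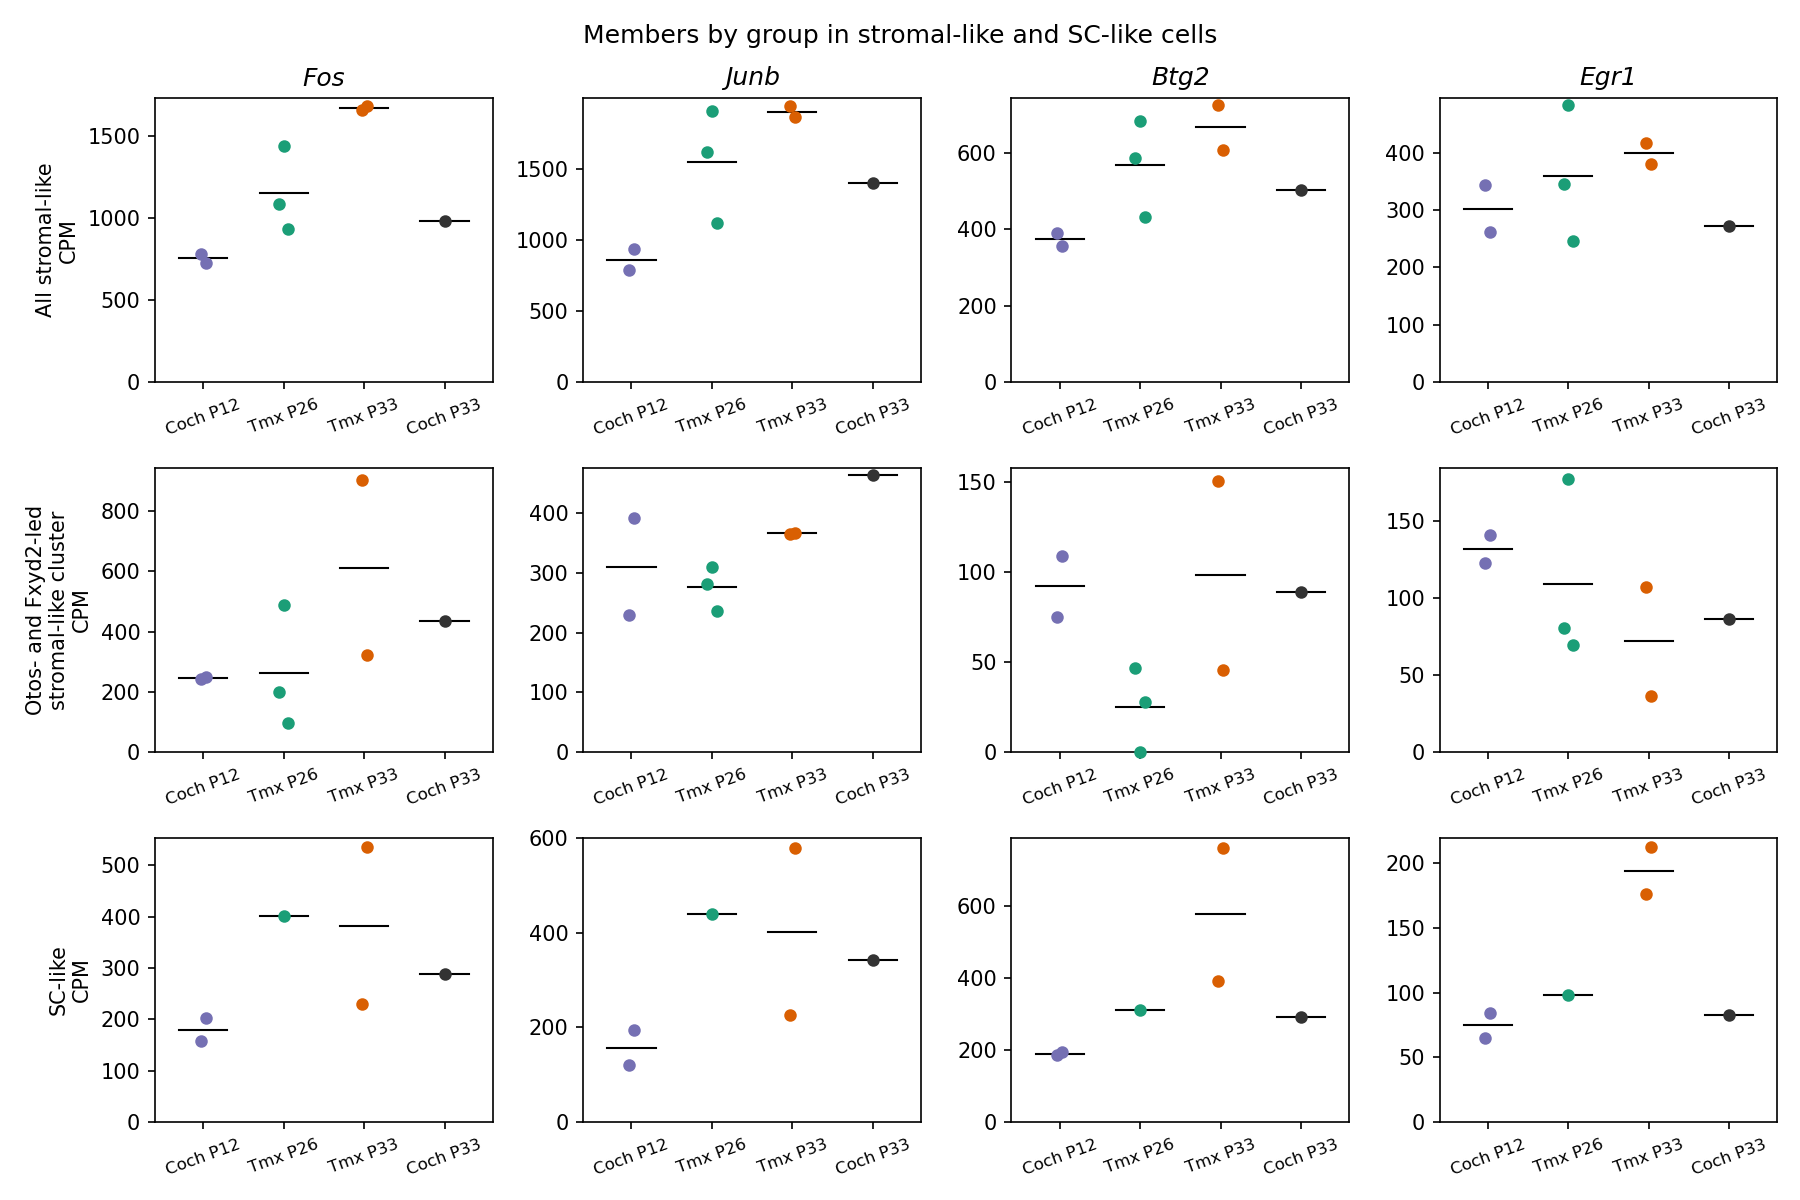
CPM (y axes, linear from 0, each panel with its own scale) of Fos, Junb, Btg2 and Egr1 by group (x axis) in all stromal-like cells, in the Otos- and Fxyd2-led stromal-like cluster and in SC-like cells; each point is 1 library and the bar is the group mean. In all stromal-like cells Fos at Coch + Tmx P33 (1660.3 and 1683 CPM) lies above every other library, and in SC-like cells Egr1 does (176 and 212 CPM).

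Whether SC-like cells changed otherwise than the stroma was tested directly, as the difference of the 2 changes in the same 4 libraries. None of the 10 members passed with edgeR or DESeq2, 1 had an unadjusted p under 0.05 with edgeR, and 4.37% of 7645 genes were called. Egr1 had a difference of 1.05 ± 0.44 (edgeR, BH adjusted p = 0.237), Btg2 of 0.70 ± 0.37 (0.422) and Jun of -0.69 ± 0.36 (0.421). With only the Otos- and Fxyd2-led cluster as stroma, chosen after the data were seen, Egr1 passed, as 2.86% of 3848 genes did. Its difference was 2.29 ± 0.70 (edgeR, BH adjusted p = 0.0409). In that cluster Egr1 went from 123 and 141 CPM in Coch P12 to 107 and 36.7 CPM in Coch + Tmx P33. The latter rested on 5 UMIs from 6 cells in rep 1 and 4 UMIs from 10 cells in rep 2.

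Other genes of the pathway were counted from lists chosen with earlier results known. Between classes these counts are descriptions, taken at the threshold above and with all stromal-like cells as the stroma. They were not taken against the Otos- and Fxyd2-led cluster. Of 36 other immediate early genes, 23 were tested in SC-like against stromal-like cells, and 1 was higher and 19 lower, where 20.5% and 27.9% of genes were. Their median was -1.92 against -0.14 over all genes. Klf2, a shear-responsive factor (-5.88), Ier3 (-5.67), Cyr61, a secreted matricellular protein (-4.54), and Zfp36l2, an mRNA decay factor (-4.52), fell most. Against macrophage-like cells 2 of 23 were higher and 17 lower, where 25.3% and 30.3% of genes were, again with Ier3 (-5.49) and Zfp36l2 (-5.33) at the front. Of 14 other AP-1 subunits and partners, 7 were tested in each, and 4 and 6 were lower and 0 higher. Maf, a large MAF factor of macrophages, changed by -4.80 and -8.38.

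The remaining lists were called no more often than genes at large in SC-like against stromal-like cells, where 48.3% passed, except for the feedback genes with 4 of 6. Of 16 kinases and SRF cofactors, 12 were tested, 2 higher and 2 lower: Map2k1, the kinase above ERK, by 2.68, Mapk9 by 1.03, Elk3 by -1.54 and Mapk8 by -1.32. Of 11 feedback genes, 6 were tested and 2 rose, Spry2 by 3.06 and Dusp16 by 2.34, while Spred1 (-1.28) and Spred2 (-1.62) fell. Of 18 heat shock genes 17 were tested, 2 higher and 4 lower, with Hspb1 at -4.65 and Hspa4l at 3.32. In HC-like against SC-like cells 3 of 13 heat shock genes were higher, where 16.8% of all genes were: Hsph1 by 2.88, Hspa4l by 2.33 and Hsp90aa1 by 1.75. Map2k1 (-2.36) and Spry2 (-3.70) were lower there, and 0 of 6 other immediate early genes were called by edgeR.

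Between groups the wider list was counted in 3 classes. For Coch + Tmx P33 against Coch P12, 9 of 34 other immediate early genes rose and 1 fell in stromal-like cells, where 4.57% of genes rose. Cyr61 (4.35), Ctgf (3.74), Arc (3.62) and Plk2 (3.21) rose most, and the median was 0.62 against -0.02 over all genes. The stromal-like cluster led by Fst, with Cyr61 among its leading genes, had 3 and 1 cells in Coch P12 but 61 and 103 in Coch + Tmx P33. The part of such shifts between clusters in these changes was not tested. In SC-like cells 2 of 16 rose, where 3.27% of genes did, Socs3 by 3.39 and Gadd45g by 2.08, and Gadd45a fell by 2.04, with a median of 0.76 against -0.03. In macrophage-like cells 2 of 27 rose, where 0.694% of genes did. The difference between the changes in SC-like and stromal-like cells passed for 2 of 23, both lower, where 4.37% of genes passed in either direction. In cHC-like against HC-like cells Gadd45g was higher by 3.38, and Sgk1, a stress-induced kinase, was lower by 3.77, among 13 tested, where 7.88% of genes passed in either direction.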

How the data were processed

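The authors deposited UMI counts per gene and cell barcode, made with Cell Ranger on mm10 from 10x Chromium 3′ libraries (per the labels and the submitters' processing notes; versions are not given in the sources used here). Barcodes with under 500 genes or at least 25% mitochondrial UMIs (1954 and 84) and 41 doublets called by Scrublet as implemented in scanpy 1.11.5 (0.681%) were left out. Cells were clustered by Leiden (leidenalg 0.10.2; 2000 variable genes, 30 components, 15 neighbours, resolution 1) with 537 genes held out, members and listed genes among them, and named from markers; 7 clusters (1132 cells) stayed unnamed. The study's own cell filtering and annotation were not used here. The transgene and reporters were not analysed here.

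For each library and class the counts were added up, and these sums were tested with edgeR 4.0.16 in R 4.3.3 (quasi-likelihood, TMM, filterByExpr, BH over all genes tested, threshold 0.05), with library as a block between classes. Between classes the fits give fold changes and SE for the members, and adjusted p-values are not printed for them. The tests were checked on simulated data. Alternatives were DESeq2 1.42.0, RLE size factors, no filter, at least 10 cells, under 10% mitochondrial UMIs, a replicate block and leaving out each library. All 10 members are named, with the 10 genes most correlated with their sum and, from each other list, at most 4 called genes of largest fold change, or the 2 of smallest adjusted p where none was called. The members and lists were chosen with earlier results of these data known. An upper limit at 0 UMIs is 3 counts of the class total, for counting error only. Replicate libraries differed by more than sampling noise, so none were merged.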

Additional observations from a re-analysis of the deposited data

Results flagged for a closer look

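Fosb, a FOS relative, had mean differences of opposite sign in 2 groups when HC-like cells were set against SC-like cells. In Coch + Tmx P33 it was higher in HC-like cells of both libraries, 148 and 45.1 CPM against 18.1 and 29.3 CPM, a mean log2 difference of 1.79 on log2(CPM + 1). In Coch P12 the HC-like cells had 0 UMIs, which allow up to 13.7 and 37.4 CPM, against 12.5 and 25.3 CPM in SC-like cells. The mean log2 difference there, -4.24, is set by the 1 added to CPM, and the upper limits lie above the SC-like values, so no direction was detectable in Coch P12 at this depth. An opposite direction is therefore not shown, and the difference between the groups was not tested.

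Members were also seen in data outside the comparisons. Barcodes left out for few genes, 90.8% to 94.8% hemoglobin UMIs by library, held between 1487 and 2069 member UMIs per 1000000 other UMIs. No group had 4 libraries, so no library was tested as an outlier.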

How the results depend on the processing

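Between cell classes, counts of members past the threshold are descriptions. Of 1166 recomputed fold changes of members, 1025 kept their call and direction or, where called in neither fit, moved by less than their SE. Another 82, called in neither fit, moved by more. Of all those called in neither fit, 49 changed sign. Of 279 that were called, 247 kept their call and 27 lost it. Among members called in either fit, reversals came only from the Otos- and Fxyd2-led cluster as stroma, chosen after the data were seen. They were in SC-like against stromal-like cells: Jun 0.61, Jund 0.057, Egr1 0.14, Ier2 0.64 and Btg2 1.91, with 3 members called. With that cluster 0 were called in stromal-like Coch + Tmx P33 against Coch P12, and 1 for the difference of changes. DESeq2 called 0 in cHC-like against SC-like, 0 in SC-like by group and 1 in stromal-like Coch + Tmx P26 against Coch P12. Without a filter on low counts 6 were called in HC-like against SC-like, 1 in cHC-like against HC-like and 1 (Atf3) in stromal-like Coch + Tmx P33 against Coch + Tmx P26. Under 10% mitochondrial UMIs gave 0 in cHC-like against SC-like and 1 in SC-like by group, and at least 10 cells gave 4 there. Leaving out 1 library gave 0 to 6 calls in HC-like against SC-like, 0 to 1 in cHC-like against HC-like, 0 to 2 in stromal-like Coch + Tmx P33 against Coch P12, 0 to 4 in SC-like by group and a summed level of 3758 to 4015 CPM over all kept cells. The share of cells with any member was 97.8% unthinned. The cause was not tested.

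Replicate numbers did not pair the libraries: deviations of same-numbered libraries correlated at -0.12 to 0.25 in stromal-like, -0.06 to 0.13 in macrophage-like and 0.11 in SC-like cells. With the replicate block 3 members were called in stromal-like Coch + Tmx P33 against Coch P12, 3 in SC-like by group, and 0 in the other group comparisons. Leaving out a library in cHC-like against SC-like left no residual degrees of freedom and was not run. HC-like comparisons with at least 10 cells or under 10% mitochondrial UMIs were not run, as too few libraries remained.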
